A study of Mus musculus with 16 samples.

Results

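Mitochondrial fatty acid oxidation and the making of ketone bodies were followed in mouse liver through 33 genes, chosen by name for their step in the pathway. The choice was made with earlier results of these data known. A probe set was used where the platform annotation named only that gene, and 32 of the 33 genes had at least 1, with 62 probe sets in all out of 45037 tested. The 32 genes were set against 18194 genes measured in the same way. Each gene is given by its brightest probe set over all arrays, and another probe set of the gene is given where its call differed in a comparison or its difference lay over 1.5-fold from that of the brightest. The genes for mitochondrial acetoacetyl-CoA condensation and interconversion of ketone bodies (Acat1 and Bdh1) stand for ketogenesis. Acsl1 is part of the list of related pathways used below and is not reported by itself.

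The study asked which liver genes answer to PPARα, the nuclear receptor that senses fatty acids, by giving its synthetic agonist Wy14643 to mice with and without it. Livers came from 16 male mice, 3 to 5 months old, with 4 mice in each of 4 groups and 1 Affymetrix mouse genome array per mouse. The groups were PPARα-null mice (knockout, substrain 129S4/SvJae) on food with 0.1% Wy14643, wild-type mice (substrain 129S1/SvImJ) on that food, knockout mice on normal food (control) and wild-type mice on normal food, each for 5 days. No other allele or agent was named for any group. Because the substrain differed wherever the genotype did, an effect of the receptor and an effect of the substrain cannot be told apart in a comparison of genotypes.

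Long-chain fatty acids cross the inner mitochondrial membrane as carnitine esters. Inside, each turn of β-oxidation runs through an acyl-CoA dehydrogenase, a hydratase, a hydroxyacyl-CoA dehydrogenase and a thiolase, and electrons leave through the electron transfer flavoprotein. In liver the acetyl-CoA formed is turned in large part into ketone bodies, which other tissues burn during fasting. PPARα is known as a main transcriptional activator of this pathway in liver, and it binds DNA with RXR at a direct repeat of AGGTCA spaced by 1 base.

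The values are log2 intensities, for which a difference of 1 is a change by a factor of 2. Array medians were 2.15 to 2.24, and 31 of the 32 genes had a mean above 6 in every group. The shares given below for all genes include dim genes and were not matched to the 32 genes for brightness. A gene was called higher or lower where limma's adjusted p over all probe sets was under 0.01 and the fold was over 1.5. Ppara itself was lower in knockout livers than in wild-type livers at each of its 3 probe sets, with differences of -1.15 to -2.2 on Wy14643 and -0.63 to -1.59 on control food, the weakest of which was not called. Its lowest value in a knockout array was 5.90, so signal remained, and whether these probes lie inside the disrupted part of the gene is not given in the sources used here. All 8 hepatocyte markers had means above 6 in every group. The third array of wild type on Wy14643 stood apart by genes of the exocrine pancreas. In it Prss2 read 8.49, Cpa1 7.70 and Ctrb1 8.45, while Prss2 read 1.86 to 2.59 and the other two read 1.17 to 2.07 in the other 15 arrays. Cela1, the fourth pancreatic gene measured, read 8.53 in this array and 6.49 to 6.82 in the rest of its group, below the 9.17 to 9.72 of the 12 arrays of the other groups. Counts are therefore also given without this array. The mice are separate animals, so p-values measure the spread between mice.

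Promoter sequence is shown first for the genes whose windows hold a close match to the PPARα motif. RefSeq windows (GRCm38.p6) of 250 bases before to 50 bases after the start site matched 26 of the 33 genes, with 28 windows. No window was used for Cpt1b, Crat, Acad9, Decr1, Acaa2, Acat1 and Mut. The repeat of AGGTCA spaced by 1 base was searched on both strands with up to 2 mismatches in the 12 letters of its hexamers. It was found in 4 of the 28 windows, against 3.86% of all 32851 windows in the table. The matches lay in Slc25a20 (chr9:108662134-108662162, + strand), Echs1 (chr7:140116484-140116512, - strand), Etfa (chr9:55512300-55512328, - strand) and Pcca (chr14:122534319-122534347, + strand), each with 2 mismatches. Each stretch is written on the strand of its gene, and capitals mark the 13 matched letters, which for Etfa read on the opposite strand.
Slc25a20: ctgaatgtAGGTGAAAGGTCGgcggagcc
Echs1: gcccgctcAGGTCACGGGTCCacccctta
Etfa: gcacacccTTACCTTTGCCCTactcccaa
Pcca: cttgacgaGGGTGAGAGGTCAgcagccgg
With the first transcribed base as 1, the match ran over 7 to 19 in Slc25a20, -83 to -71 in Echs1, -77 to -65 in Etfa and -1 to 12 in Pcca. Of these 4 genes, Slc25a20 was called higher on Wy14643 in wild-type livers, and Echs1, Etfa and Pcca were not called.

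Slc22a5, whose response to Wy14643 in wild type was the largest among the measured genes, had at best 4 mismatches to the repeat in its window. The 250 bases before its start site (chr11:53891704-53891953, - strand) are shown with CG pairs in capitals. They held 30 CG pairs and 73.6% G or C.
Slc22a5: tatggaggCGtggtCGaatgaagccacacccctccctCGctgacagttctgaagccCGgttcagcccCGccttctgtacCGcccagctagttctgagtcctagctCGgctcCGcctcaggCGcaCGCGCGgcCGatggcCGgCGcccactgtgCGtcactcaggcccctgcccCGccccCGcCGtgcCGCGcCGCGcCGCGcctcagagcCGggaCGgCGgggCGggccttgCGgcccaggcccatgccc
Hadha and Hadhb, which encode the subunits of the mitochondrial trifunctional protein, are transcribed away from each other from start sites 273 bases apart. Their windows share the 228 bases of chr5:30155003-30155230, which lie between the start sites and upstream of both genes. This stretch is shown on the + strand with CG pairs in capitals. It held 15 CG pairs, 57% G or C and at best 4 mismatches to the repeat.
Hadha and Hadhb: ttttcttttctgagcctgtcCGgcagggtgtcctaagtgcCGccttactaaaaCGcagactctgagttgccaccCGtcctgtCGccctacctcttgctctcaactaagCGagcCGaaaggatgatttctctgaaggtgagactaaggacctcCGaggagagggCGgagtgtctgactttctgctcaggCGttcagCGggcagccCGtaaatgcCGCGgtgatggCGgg
Of other letters searched on both strands, the hexamer AGGTCA, which is also part of the repeat and of TCAAGGTCA, lay in 6 of the 28 windows (Cpt1a, Acadvl, Acadm, Echs1 and both windows of Pcca), against 16.3% of all windows. TCAAGGTCA lay in 0 of 28, against 0.423%. GCATGCGC, the core of the NRF1 motif, lay in 5 of 28 (Acadm, Acad10, Etfa, Etfdh and Pccb), against 2.71%. These matches describe letters in the windows and show no binding. Sequence outside the windows was not searched. The study's own screen reached farther to each side of the start site and reported putative response elements in Etfb and Etfdh, among other genes.

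In wild-type livers, Wy14643 raised genes at nearly every step of the pathway. Of the 32 genes, 22 were higher and 1 was lower on Wy14643 than on control food, where 7.72% of all genes were called higher and 6.74% lower. The median difference was 0.86, against -0.03 over all genes. All 5 measured genes of the carnitine shuttle rose, as did 6 of 7 acyl-CoA dehydrogenases listed for straight chains. So did 4 of 5 genes of hydration, dehydrogenation and thiolysis and both auxiliary enzymes of unsaturated chains. Of the electron transfer genes 2 of 3 rose, and of the ketone body genes 1 of 2. Among 8 genes of branched-chain and propionate breakdown, 2 rose, 1 fell and the median was -0.16. Without the array that held pancreatic signal, 22 genes were higher and 2 lower. The added call was Pccb.

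In knockout livers few differences between the foods were seen. Acadl alone was called, higher on Wy14643 by 0.66, and 0 genes were called lower, where 0.0275% and 0% of all genes were called. The median difference was 0.09, against 0.01 over all genes. The groups did not overlap for 11 genes, 10 of them higher on Wy14643 and 1 (Crat) lower, where 3.68% of all genes were higher and 2.70% lower without overlap. The responses themselves differed between the genotypes for 18 genes in the interaction of genotype and food. The response was lower in knockout livers for 17 of them and less negative for Acadsb, where 5.38% of all genes were called negative and 4.62% positive. The median of this difference of responses was -0.67, against 0.04 over all genes. Without the array with pancreatic signal, 17 genes were negative and 2 positive.

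**Figure D1:**
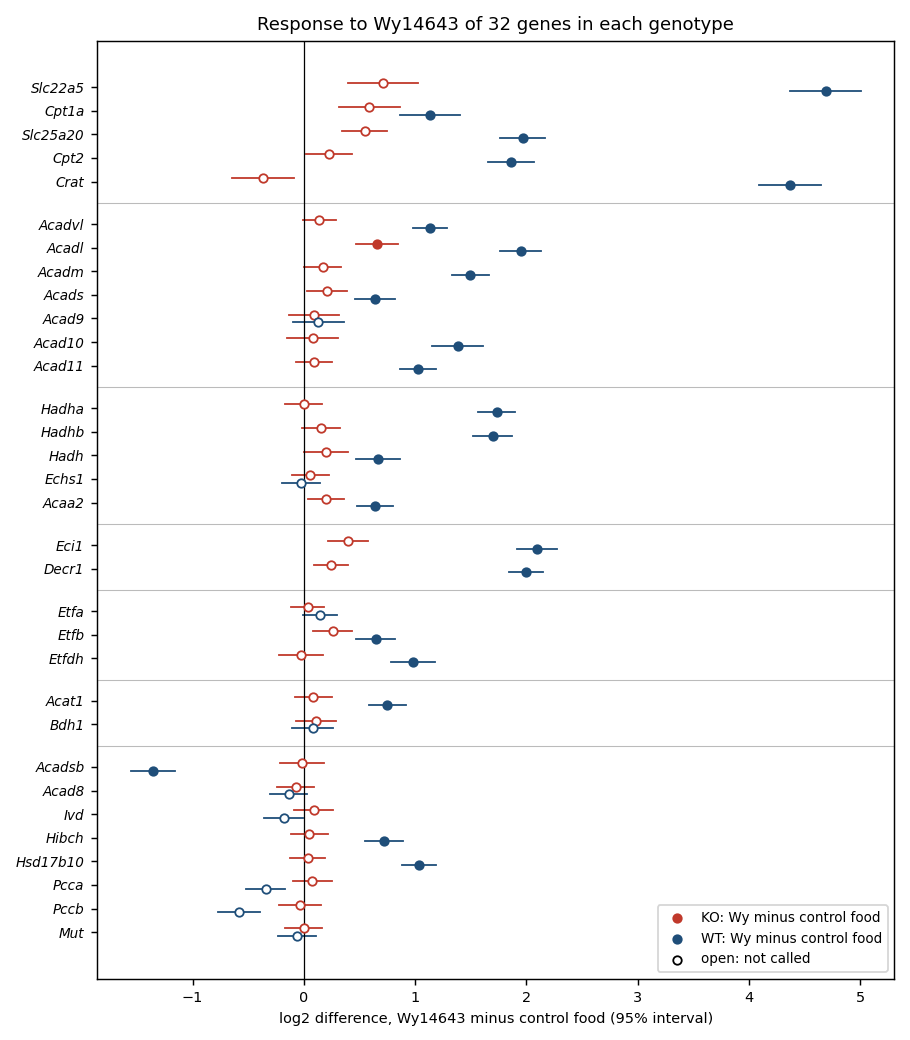
Response to Wy14643 of 32 genes, grouped by role from the carnitine shuttle at the top to branched-chain and propionate steps at the bottom. The x axis is the log2 difference, Wy14643 minus control food, with its 95% interval, red for knockout and blue for wild type (n = 4 mice per group), and filled points were called. Blue points reach 4.69 for Slc22a5 and 4.37 for Crat, and the 1 filled red point is Acadl at 0.66.

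Set directly against each other on Wy14643, knockout livers held less of 22 genes and more of 1 (Acadsb) than wild-type livers, where 8.12% of all genes were called lower and 7.13% higher. The median difference was -1.17, against 0.04 over all genes. Without the array with pancreatic signal, 22 genes were lower and 2 higher.

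On control food the genotypes already differed. Of the 32 genes, 9 were called lower and 0 higher in knockout livers, where 0.401% of all genes were called lower and 0.143% higher. They were Slc22a5, Slc25a20 and Cpt2 of the carnitine shuttle, Acadvl, Acadl and Acads of the dehydrogenases, Eci1, Etfb and Etfdh. The median difference over the 32 genes was -0.18, against 0.00 over all genes. The groups did not overlap for 20 genes, 18 of them lower and 2 higher in knockout livers, where 4.18% of all genes were lower and 3.98% higher without overlap. The comparisons share groups of mice, so the lists of genes called in them are not independent of each other.

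**Figure D2:**
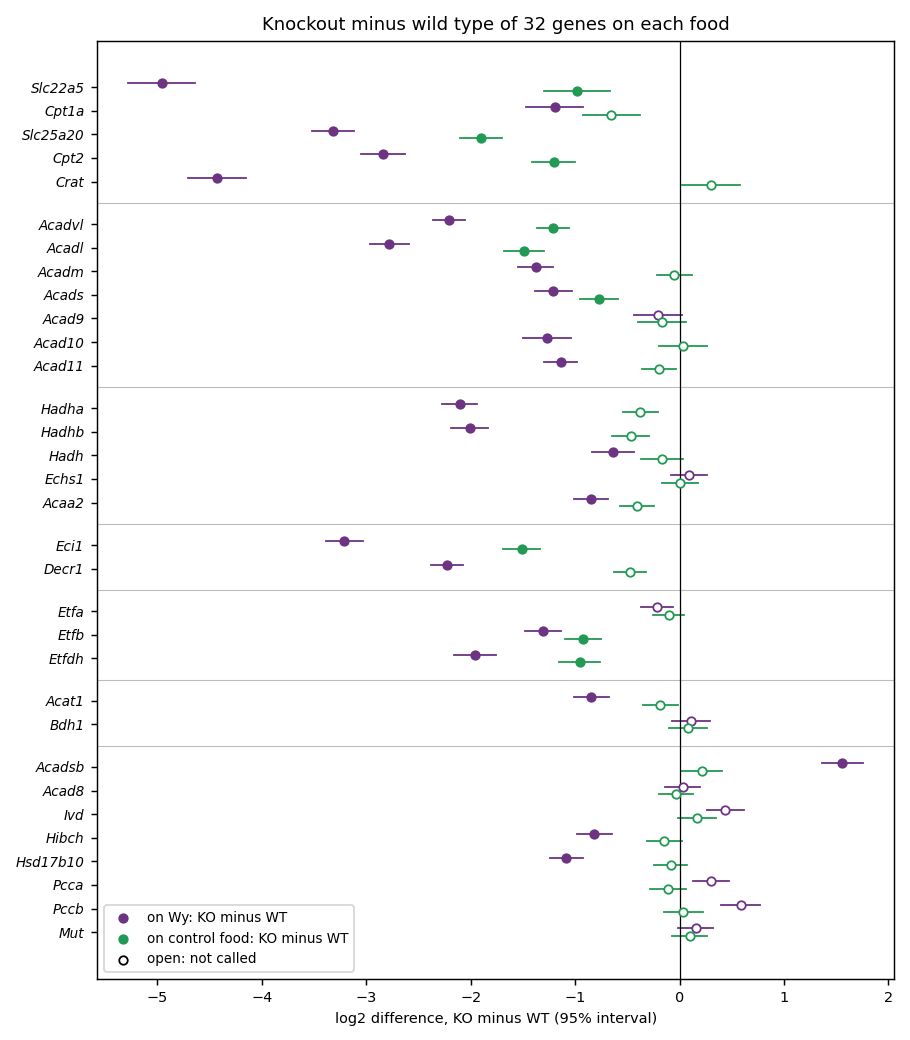
Knockout minus wild type for the same 32 genes on each food. The x axis is the log2 difference with its 95% interval, purple on Wy14643 and green on control food (n = 4 mice per group), and filled points were called. On Wy14643 Slc22a5 lies at -4.96 and Crat at -4.43, while on control food Slc25a20 lies lowest at -1.90 and Crat lies at 0.30.

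The carnitine shuttle held the widest changes. Slc22a5 is the plasma membrane transporter that brings carnitine into the cell. It read 5.97, 5.29, 5.76 and 5.93 in knockout livers on Wy14643, against 10.46, 10.70, 10.86 and 10.77 in wild-type livers on Wy14643. On control food Slc22a5 read 5.24, 4.67, 4.98 and 5.21 in knockout livers, against 6.12, 6.06, 5.92 and 5.93 in wild-type livers. Only wild-type livers on Wy14643 were high, and every other array lay at 6.12 or below. Slc22a5 rose by 4.69 ± 0.15 (SE), or 25.8-fold, on Wy14643 in wild type (adjusted p = 2.7e-13), and was 31.1-fold lower in knockout than in wild-type livers on Wy14643. In knockout livers the difference of 0.71 on Wy14643 was not called (adjusted p = 0.094), although the groups did not overlap. On control food Slc22a5 was 1.97-fold lower in knockout livers (adjusted p = 0.0021). That call was lost when wild-type control replicate 1 or 2 or knockout control replicate 3 was left out, with adjusted p of 0.012, 0.011 and 0.011. At the dimmer of its 2 probe sets Slc22a5 rose 47.3-fold in wild type and had an interaction of -5.08, while the control food difference of -0.79 was not called (adjusted p = 0.049). There the knockout arrays of both foods overlapped, as did the genotypes on control food.

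Crat, carnitine acetyltransferase, moves acetyl and other short acyl groups between CoA and carnitine. It read 6.49, 6.45, 6.48 and 6.05 in knockout livers on Wy14643, against 10.76, 10.83, 10.81 and 10.78 in wild-type livers on Wy14643. On control food Crat read 6.89, 7.0, 6.51 and 6.53 in knockout livers, against 6.48, 6.59, 6.49 and 6.15 in wild-type livers. The 4 arrays of wild type on Wy14643 lay between 10.76 and 10.83, far above all others, and the genotypes overlapped on control food. Crat rose by 4.37 ± 0.13, or 20.6-fold, in wild type (adjusted p = 1.2e-13), and had the most negative interaction of the 32 genes by their brightest probe sets, -4.73 ± 0.19. Its 2 dimmer probe sets rose less, 5.86-fold and 10.2-fold, with interactions of -2.40 and -3.47, all called. In knockout livers Crat differed by -0.37 on Wy14643, which was not called (adjusted p = 0.38), and the foods overlapped at both dimmer probe sets.

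Slc25a20 is the carnitine-acylcarnitine translocase of the inner membrane. It read 8.24, 8.02, 8.0 and 8.29 in knockout livers on Wy14643, against 11.42, 11.43, 11.47 and 11.49 in wild-type livers on Wy14643. On control food Slc25a20 read 7.56, 7.49, 7.58 and 7.72 in knockout livers, against 9.65, 9.54, 9.43 and 9.34 in wild-type livers. The 4 groups occupied 4 separate ranges, with knockout control lowest and wild type on Wy14643 highest. Slc25a20 was 9.99-fold lower in knockout livers on Wy14643 and 3.73-fold lower on control food (adjusted p = 4.6e-14 and 4.3e-09). No other of the 32 genes differed as widely between the genotypes on control food. It rose by 1.97 ± 0.09 on Wy14643 in wild type and differed by 0.55 ± 0.09 in knockout (adjusted p = 0.046, not called). As the mean of its 2 probe sets the knockout response was 0.66 and was called (adjusted p = 0.0037).

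Cpt1a, the liver isoform of carnitine palmitoyltransferase 1, is the step at which malonyl-CoA limits entry of fatty acids. It read 9.42, 9.47, 9.68 and 9.88 in knockout livers on Wy14643, against 10.63, 10.83, 10.77 and 11.01 in wild-type livers on Wy14643. On control food Cpt1a read 8.91, 8.75, 9.34 and 9.09 in knockout livers, against 9.68, 9.63, 9.71 and 9.67 in wild-type livers. Knockout arrays spread more widely than wild-type arrays, and the groups did not overlap between foods within a genotype or between genotypes on either food. Cpt1a rose 2.2-fold on Wy14643 in wild type (adjusted p = 3.3e-06), while the knockout difference of 0.59 was not called (adjusted p = 0.10). The difference between these responses, -0.55 ± 0.18, was not called either (adjusted p = 0.064). Wild-type rises of 1.23 and 1.11 at the other 2 probe sets of Cpt1a were called. Their differences of responses were larger, -0.84 and -0.97, and were not called (adjusted p = 0.024 and 0.018). A weaker response of Cpt1a in knockout livers thus did not pass the threshold of adjusted p at any of its probe sets. On control food the difference of -0.65 was not called (adjusted p = 0.021), and it was called when dim probe sets were left out of the adjustment (adjusted p = 0.0084 with those of mean above 4). At the other 2 probe sets of Cpt1a the knockout arrays of both foods overlapped, with differences of 0.39 and 0.14, as did the genotypes on control food, at -0.37 and -0.27, none of them called. The probe set annotated to the muscle isoform Cpt1b also named 2 other genes and was not used for it. Cpt2, which turns the carnitine ester back into acyl-CoA in the matrix, averaged 8.33 ± 0.19 in knockout and 11.17 ± 0.11 in wild-type livers on Wy14643 (SD, n = 4 each). It averaged 8.11 ± 0.06 in knockout and 9.31 ± 0.07 in wild-type livers on control food. Its knockout response of 0.23 was not called (adjusted p = 0.50). A second, dim probe set of Cpt2, with means of 2.01 to 3.40, was called lower in knockout livers on Wy14643 (-1.33) and was not called in the other comparisons.

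**Figure D3:**
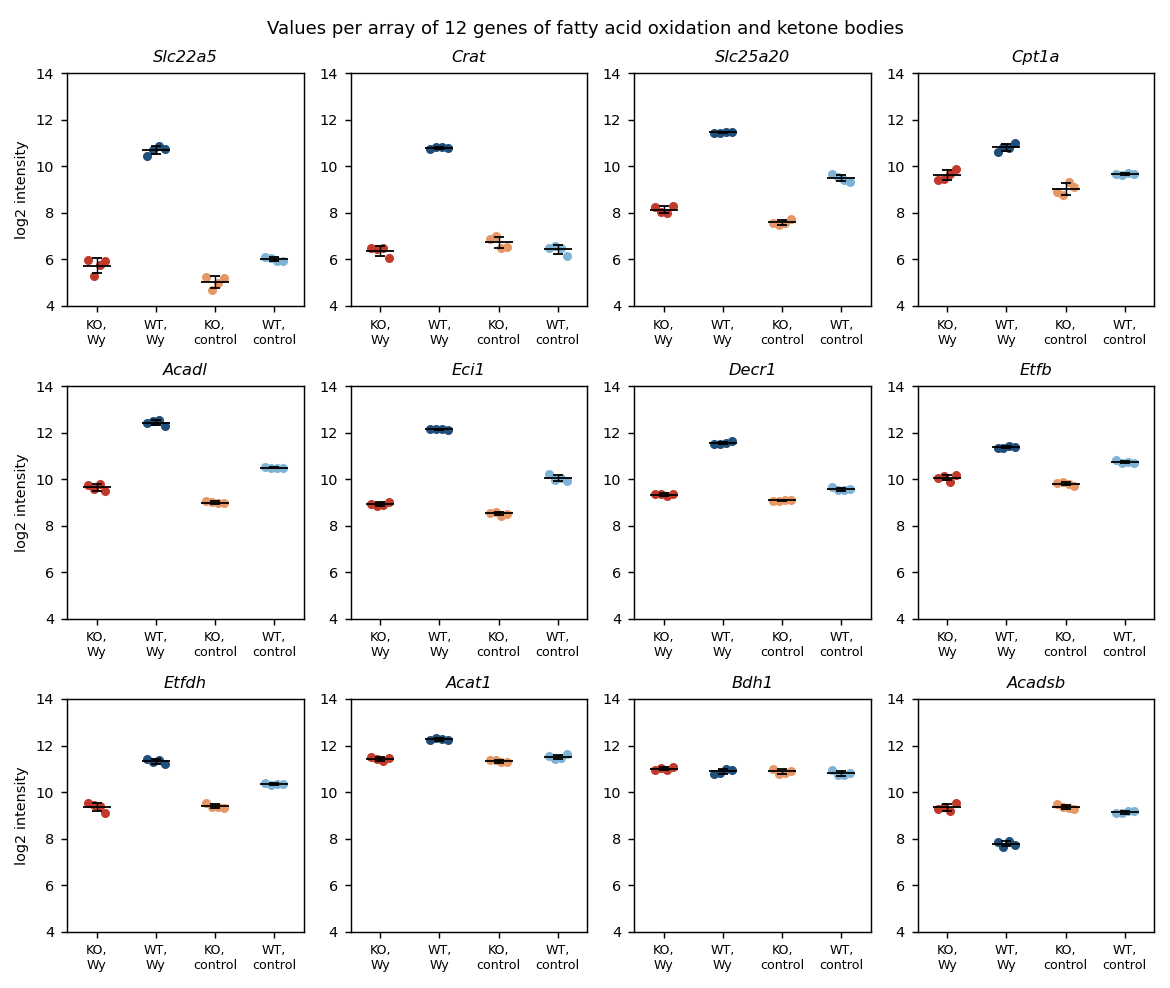
Log2 intensity (y axis) of 12 genes in every array, by group on the x axis, with KO for knockout, WT for wild type and Wy for Wy14643. Points are mice, and bars give the mean and SD of 4 mice. Slc22a5 and Crat are high only in wild type on Wy14643, Slc25a20, Acadl, Eci1, Etfb and Etfdh are lower in knockout on both foods, Bdh1 overlaps between all groups, and Acadsb is lowest in wild type on Wy14643.

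Acyl-CoA dehydrogenases open each turn of β-oxidation, and those of straight chains differ in the chain length they prefer. Acad10 and Acad11 were listed with this group, and the chains their products act on were not examined here. Acadl, for long chains, read 9.77, 9.57, 9.80 and 9.48 in knockout livers on Wy14643, against 12.41, 12.48, 12.56 and 12.29 in wild-type livers on Wy14643. On control food Acadl read 9.06, 9.0, 8.97 and 8.96 in knockout livers, against 10.51, 10.49, 10.48 and 10.47 in wild-type livers. Every knockout array on Wy14643 lay above every knockout control array, but below every wild-type array on either food. Acadl rose by 1.95 ± 0.09 in wild type (adjusted p = 2.7e-11) and by 0.66 ± 0.09 in knockout (adjusted p = 0.0080). The knockout call was close to its threshold: it was lost in 7 of 8 refits that left out 1 array, with adjusted p of 0.011 to 0.046, and it was kept in the other, without knockout replicate 4 on Wy14643. As the mean of its 2 probe sets Acadl differed by 0.32 in knockout, which was not called (adjusted p = 0.14). A second, dim probe set of Acadl read 1.24 to 1.55 on average in the 4 groups and showed no called difference.

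The other dehydrogenases rose in wild type by different amounts. Acadm, for medium chains, rose by 1.5 ± 0.08, and Acad10 by 1.38 ± 0.11. Acadvl, for very long chains, rose by 1.14 ± 0.07, Acad11 by 1.03 ± 0.08 and Acads, for short chains, by 0.64 ± 0.09. Acad9, which also serves the assembly of respiratory complex I, differed by 0.13 ± 0.11 and was not called (adjusted p = 0.47), and a dimmer probe set of it differed by 0.55 without a call. Knockout responses of these 6 genes lay between 0.08 and 0.21, none of them called. The genotypes parted these genes differently on control food. Acadvl averaged 9.32 ± 0.06 in knockout and 10.53 ± 0.03 in wild-type livers there, a 2.31-fold difference (adjusted p = 3.3e-08), and Acads was 1.71-fold lower in knockout livers (adjusted p = 5.7e-05). Acadm averaged 11.20 ± 0.08 in knockout and 11.25 ± 0.05 in wild-type livers, and Acad10 averaged 7.46 ± 0.21 in knockout and 7.43 ± 0.10 in wild-type livers. For these 2 genes the groups overlapped on control food and were apart on Wy14643, where Acadm was 2.60-fold and Acad10 2.42-fold lower in knockout livers.

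Hydration, dehydrogenation and thiolysis follow. Hadha read 9.83, 9.68, 9.82 and 9.70 in knockout livers on Wy14643, against 11.80, 11.85, 11.89 and 11.91 in wild-type livers on Wy14643. On control food Hadha read 9.82, 9.72, 9.66 and 9.81 in knockout livers, against 10.07, 10.13, 10.09 and 10.24 in wild-type livers. Wild type on Wy14643 was high, and the knockout arrays on the 2 foods overlapped. Its partner Hadhb read 10.06, 10.05, 9.94 and 10.23 in knockout livers on Wy14643, against 12.04, 12.13, 12.04 and 12.11 in wild-type livers on Wy14643. On control food Hadhb read 10.01, 9.92, 9.87 and 9.85 in knockout livers, against 10.48, 10.3, 10.36 and 10.39 in wild-type livers. As for Hadha, with which it shares the stretch printed above, only the knockout arrays of the 2 foods overlapped at this brightest probe set. The dimmest probe set of Hadhb gave -2.64 between knockout and wild-type livers on Wy14643, against -2.01 at the brightest. In wild type Hadha rose by 1.73 ± 0.08 and Hadhb by 1.70 ± 0.08, and in knockout they differed by 0.00 and 0.15 on Wy14643, neither called. On control food they differed by -0.37 and -0.47 between the genotypes, below the 1.5-fold minimum (adjusted p = 0.035 and 0.0081). At another probe set of Hadhb, with a mean of 10.49 over all arrays, the genotypes overlapped there, at -0.12 (adjusted p = 0.84). At its dimmest probe set they were apart, at -0.65, without a call (adjusted p = 0.23). Hadh, the hydroxyacyl-CoA dehydrogenase of shorter chains, rose by 0.67 ± 0.09 in wild type with an interaction of -0.46 that was not called, while 1 of its other probe sets had one of -0.72 that was called. In wild type Acaa2, the thiolase, rose by 0.64 ± 0.08, though 1 of the 3 probe sets of Acaa2 differed by 0.56 and was not called. The knockout response was 0.20 for each of these genes and was not called. Echs1, the short-chain enoyl-CoA hydratase, averaged 11.12 ± 0.11 in knockout and 11.03 ± 0.05 in wild-type livers on Wy14643, and 11.06 ± 0.09 in knockout and 11.05 ± 0.05 in wild-type livers on control food. It was the gene of this step with no called difference in any comparison, and its wild-type response had a 95% interval of -0.20 to 0.14.

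Unsaturated fatty acids need auxiliary enzymes that move or reduce their double bonds. Eci1, an enoyl-CoA isomerase, read 8.92, 8.87, 8.88 and 9.03 in knockout livers on Wy14643, against 12.14, 12.14, 12.17 and 12.10 in wild-type livers on Wy14643. On control food Eci1 read 8.54, 8.61, 8.43 and 8.52 in knockout livers, against 10.22, 9.94, 10.06 and 9.94 in wild-type livers. As for Slc25a20, the 4 groups formed 4 separate ranges. Eci1 was 9.27-fold lower in knockout livers on Wy14643 (adjusted p = 1.4e-14) and 2.85-fold lower on control food (adjusted p = 1.5e-08), rose by 2.10 ± 0.08 in wild type and differed by 0.40 in knockout (adjusted p = 0.093, not called).

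Decr1, the 2,4-dienoyl-CoA reductase, read 9.35, 9.35, 9.27 and 9.38 in knockout livers on Wy14643, against 11.53, 11.53, 11.57 and 11.64 in wild-type livers on Wy14643. On control food Decr1 read 9.08, 9.06, 9.11 and 9.12 in knockout livers, against 9.66, 9.52, 9.54 and 9.57 in wild-type livers. The groups again formed separate ranges, but the 3 groups other than wild type on Wy14643 lay close together. Decr1 rose by 2.0 ± 0.07 in wild type (adjusted p = 1.4e-12) and had the most negative interaction after Crat and Slc22a5, -1.75 ± 0.10. At its dimmer probe set Decr1 rose by 2.54 and the interaction was -2.65, and the knockout arrays of both foods overlapped. On control food it differed by -0.48, below the 1.5-fold minimum (adjusted p = 0.0019).

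The electron transfer flavoprotein, made of the products of Etfa and Etfb, passes electrons from the dehydrogenases to the ubiquinone oxidoreductase encoded by Etfdh. Etfb read 10.06, 10.13, 9.90 and 10.19 in knockout livers on Wy14643, against 11.33, 11.34, 11.43 and 11.40 in wild-type livers on Wy14643. On control food Etfb read 9.85, 9.87, 9.80 and 9.72 in knockout livers, against 10.81, 10.70, 10.72 and 10.70 in wild-type livers. Knockout arrays on either food lay below all wild-type arrays. Etfb rose by 0.65 ± 0.08, or 1.56-fold, in wild type (adjusted p = 1.1e-05) and differed by 0.26 in knockout (adjusted p = 0.29, not called). It was 2.47-fold lower in knockout livers on Wy14643 and 1.89-fold lower on control food (adjusted p = 1.5e-09 and 4.1e-06). The difference of its responses, -0.39 ± 0.12, was not called (adjusted p = 0.036).

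Etfdh read 9.52, 9.43, 9.39 and 9.12 in knockout livers on Wy14643, against 11.42, 11.28, 11.39 and 11.20 in wild-type livers on Wy14643. On control food Etfdh read 9.52, 9.36, 9.34 and 9.33 in knockout livers, against 10.38, 10.30, 10.35 and 10.35 in wild-type livers. Knockout arrays of the 2 foods overlapped, and wild-type arrays of the 2 foods were apart. Etfdh rose by 0.98 ± 0.09, or 1.97-fold, in wild type (adjusted p = 4.1e-07), differed by -0.02 in knockout, and had an interaction of -1.0 ± 0.13 (adjusted p = 4.0e-05). It was 1.94-fold lower in knockout livers on control food (adjusted p = 1.4e-05). A dim probe set of Etfdh, with means of 1.67 to 2.41, was called lower in knockout livers on Wy14643 (-0.75) and in no other comparison. Etfa, the partner of Etfb in the flavoprotein, averaged 11.38 ± 0.02 in knockout and 11.59 ± 0.02 in wild-type livers on Wy14643, a difference of -0.21 that was not called (adjusted p = 0.041), and its wild-type response was 0.14 ± 0.07.

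For ketone bodies, Acat1, the mitochondrial acetoacetyl-CoA thiolase, read 11.49, 11.42, 11.32 and 11.45 in knockout livers on Wy14643, against 12.22, 12.32, 12.30 and 12.23 in wild-type livers on Wy14643. On control food Acat1 read 11.39, 11.38, 11.27 and 11.28 in knockout livers, against 11.55, 11.40, 11.48 and 11.62 in wild-type livers. Only wild type on Wy14643 stood clear of the rest, by a small margin. Acat1 rose by 0.75 ± 0.08, or 1.68-fold, in wild type (adjusted p = 1.4e-06), and its other probe sets rose by 1.03 and 1.29. Its knockout response of 0.09 was not called (adjusted p = 0.80).

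Bdh1, which reduces acetoacetate to 3-hydroxybutyrate, read 10.93, 11.04, 10.94 and 11.06 in knockout livers on Wy14643, against 10.80, 10.82, 11.00 and 10.94 in wild-type livers on Wy14643. On control food Bdh1 read 11.01, 10.79, 10.82 and 10.92 in knockout livers, against 10.94, 10.73, 10.72 and 10.84 in wild-type livers. All groups overlapped. Its wild-type response was 0.08 with a 95% interval of -0.10 to 0.26, and no comparison of Bdh1 was called.

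Genes of branched-chain amino acid and propionate breakdown share the acyl-CoA chemistry of the pathway but moved in both directions. Acadsb, the dehydrogenase of the short branched chain from isoleucine, read 9.29, 9.36, 9.17 and 9.55 in knockout livers on Wy14643, against 7.86, 7.65, 7.88 and 7.73 in wild-type livers on Wy14643. On control food Acadsb read 9.47, 9.36, 9.32 and 9.26 in knockout livers, against 9.09, 9.08, 9.19 and 9.21 in wild-type livers. Wild type on Wy14643 was the low group, the reverse of most genes above. Acadsb fell 2.56-fold on Wy14643 in wild type (-1.36 ± 0.09, adjusted p = 6.5e-09), differed by -0.01 in knockout, and was 2.95-fold higher in knockout than in wild-type livers on Wy14643.

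Hsd17b10, which works later in isoleucine breakdown, rose by 1.03 ± 0.07 in wild type (adjusted p = 9.6e-09), and Hibch, a hydrolase of valine breakdown, rose by 0.72 ± 0.08 (adjusted p = 2.2e-06). The interaction of Hibch was -0.67, and -1.40 at its dimmer probe set, where the knockout response was -0.33 and not called (adjusted p = 0.55). Pccb, a subunit of propionyl-CoA carboxylase, averaged 9.67 ± 0.09 in knockout and 9.08 ± 0.16 in wild-type livers on Wy14643, and 9.70 ± 0.07 in knockout and 9.67 ± 0.01 in wild-type livers on control food. Its wild-type difference of -0.58 ± 0.09 lay just under the 1.5-fold minimum (adjusted p = 9.3e-05), and without the array with pancreatic signal it was -0.63 and was called. The difference was also called without wild-type replicate 4 on Wy14643 (-0.62) or wild-type control replicate 1 (-0.59). Quantile normalization (-0.61) and array weights (-0.60) gave the call too. The other subunit Pcca differed by -0.34 ± 0.08 in wild type, below the fold minimum (adjusted p = 0.0060). Ivd, the dehydrogenase of leucine breakdown, was higher in knockout livers on Wy14643 by 0.44, below the fold minimum (adjusted p = 0.00085), and its other probe set by 0.77, which was called. At that other probe set the genotypes were also apart on control food, by 0.50 without a call (adjusted p = 0.014). Its interaction of 0.28 was not called (adjusted p = 0.22). Acad8, of valine breakdown, and Mut, methylmalonyl-CoA mutase, differed by -0.14 and -0.06 in wild type and were not called. In knockout livers the responses of these 8 genes lay between -0.07 and 0.09 at their brightest probe sets.

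The calls were also counted over probe sets. Of the 62 probe sets, 39 were called higher and 1 lower on Wy14643 in wild type, where 5.84% of all probe sets were higher and 4.82% lower. In knockout 1 was higher and 0 were lower, where 0.0133% and 0% of all probe sets were called. Between knockout and wild-type livers on Wy14643, 2 were higher and 42 lower in knockout, where 4.91% of all probe sets were higher and 6.17% lower. On control food 0 were higher and 10 lower in knockout livers, where 0.0910% of all probe sets were higher and 0.262% lower. Second probe sets of Acad10 and Pcca, with means of 0.23 to 0.88 in the 4 groups, showed no called difference.

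Other genes of fatty acid and acyl-CoA metabolism gave a background for the 32 genes. Of 38 measured genes on a list of related pathways, 14 were higher and 3 lower on Wy14643 in wild type (median 0.38). Over all genes 7.72% were called higher and 6.74% lower in that comparison. In knockout 0 of the 38 were called (median 0.05), where 0.0275% of all genes were called higher and 0% lower. Between the genotypes on control food 3 of the 38 were called lower and 0 higher in knockout livers. There 0.401% of all genes were called lower and 0.143% higher. The median difference of the list was -0.05 and the lowest was -1.66. Acacb, whose product makes the malonyl-CoA that inhibits Cpt1a, rose by 3.86 ± 0.18 in wild type. Acot2, a mitochondrial acyl-CoA thioesterase, rose by 3.92 ± 0.23. Bdh2, a cytosolic dehydrogenase, fell by 3.38 in wild type, unlike Bdh1. Slc16a1, a transporter of lactate and ketone bodies, rose by 1.83 ± 0.16. Mlycd, which breaks malonyl-CoA down, rose by 1.53 ± 0.10 in wild type and differed by -0.59 between knockout and wild type on control food (adjusted p = 0.0059, called lower). Dbt, of the branched-chain ketoacid dehydrogenase, fell by 1.26 in wild type.

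Genes of general mitochondrial content moved less. Of 33 measured genes for channel, import, respiratory, fusion and genome maintenance proteins, 7 were higher and 0 lower on Wy14643 in wild type. There 7.72% of all genes were called higher and 6.74% lower. Of the 33, 30 differed upward and 3 downward. Their median was 0.27, against 0.86 for fatty acid oxidation and ketogenesis and -0.03 over all genes. The 7 called genes were Mfn2 at 1.02, Tomm40 at 1.0, Phb2 at 0.94, Hspe1 at 0.86, Hspd1 and Tfam at 0.75 and Tomm70a at 0.72. In knockout livers 0 of the 33 were called on Wy14643 (median 0.02), where 0.0275% of all genes were called higher and 0% lower. Between the genotypes on control food 0 were called (median -0.02), where 0.401% of all genes were called lower and 0.143% higher.

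**Figure D4:**
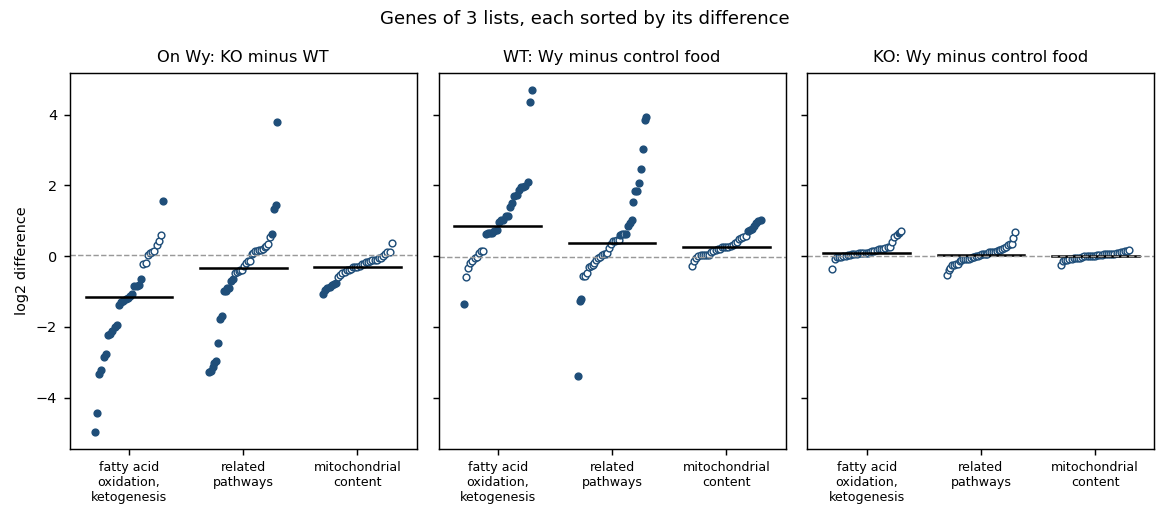
Log2 difference (y axis) of each gene in 3 lists, the 32 genes of fatty acid oxidation and ketogenesis, 38 of related pathways and 33 of mitochondrial content, sorted within each list. Filled points were called, black lines are list medians, and the dashed line is the median of all genes. In wild type the list medians on Wy14643 are 0.86, 0.38 and 0.27, and in knockout they are 0.09, 0.05 and 0.02.

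Markers of other liver cells moved with the same samples. Summed intensities of 8 Kupffer cell markers were 789 to 1094 in knockout and 402 to 508 in wild-type livers on Wy14643, and 912 to 1101 in knockout and 770 to 860 in wild-type livers on control food. In wild type 6 of the 8 Kupffer cell markers and 3 of 8 stellate cell markers were called lower on Wy14643. Over all genes 6.74% were called lower and 7.72% higher in this comparison. Another 3 stellate cell markers differed upward, by at most 0.80, and 0 were called higher. Of 8 sinusoidal endothelium markers 1 was called lower and 1 higher, Lyve1, with means of 2.47 on control food and 5.10 on Wy14643. Of 3 measured erythroid markers 1 was called lower, Alas2, at -2.32. Among 8 hepatocyte markers 2, Ahsg and Fgb, were lower, at -1.18 and -0.72. In whole liver fewer cells of a type and less RNA per cell cannot be told apart, and the part of these shifts in the differences above was not tested. All 10 markers of skeletal and heart muscle had means under 6 in every group, and 0 were called in any comparison.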

How the data were processed

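Liver RNA of 16 mice was measured with 1 array per mouse. The deposited values are 1 intensity per probe set and array, made by the authors with GCRMA 2.20 per the submitters' processing notes (background adjusted with probe sequence, quantile normalization, summary over probes). They are on a linear scale, with array medians of 4.43 to 4.72, so log2 was taken of the deposited intensities with no offset. Quantile normalization hides any shift that most genes share, and the background adjustment shapes the low values. The number of arrays limits the precision, and correlations within groups were 0.987 to 0.995. Each of 45037 probe sets (64 control probe sets left out) was fitted in R 4.3.3 with limma 3.58.1, 1 mean per group over 16 arrays, with two-sided tests and Benjamini-Hochberg adjustment over all probe sets. By the platform annotation 34945 probe sets named 1 gene each and were used, 932 named more and 9160 had no name here. Mut was matched by gene identifier. The genotypes were compared on each food, the foods within each genotype, and the responses by their interaction. Intervals are 95% and not adjusted. The labels give 4 mice per group, the number of arrays used here, and the study's methods give another group size and another amount of labelled RNA.

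The members and gene lists were chosen with earlier results of these data known. Values of every array were printed for the 3 called members with the largest absolute difference in each comparison, for Etfb, Etfdh, Cpt1a, Acat1 and Bdh1, and for members called against their group. Hadha and Hadhb were added after their promoters were seen to overlap. The fit and the motif search were tested on simulated data. Deviations of same-numbered mice correlated weakly, at -0.12 to 0.19, and numbers were not used to pair them. Alternatives were filters at mean log2 4 and 6, centring on the median, quantile normalization, an offset of 16, array weights, trend and robust moderation, only the arrays compared, a replicate block, the mean over probe sets, other thresholds and leaving out each array. Figures were drawn with matplotlib 3.10.9 in Python 3.11.15.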

Additional observations from a re-analysis of the deposited data

Results flagged for a closer look

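Among 128 groups of 4 mice tested for a single stray value, 4 held one by Dixon's criterion, where chance gives about 1 in 20. Crat read 6.05 in knockout replicate 4 on Wy14643, below the next value of 6.45. Hadh read 12.68 in the same array, above the next value of 12.41. Acad9 read 7.18 in wild-type replicate 2 on control food, below the next value of 7.29. Etfdh read 9.52 in knockout replicate 1 on control food, above the next value of 9.36.

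The response to Wy14643 differed between knockout and wild type for 18 genes by the interaction in limma (adjusted p under 0.01 and a difference over 1.5-fold), given here as the knockout response minus the wild-type response at the brightest probe set. In the carnitine shuttle it was -4.73 for Crat, -3.98 for Slc22a5, -1.63 for Cpt2 and -1.42 for Slc25a20. Among the dehydrogenases it was -1.33 for Acadm, -1.30 for Acad10, -1.29 for Acadl, -1.0 for Acadvl and -0.94 for Acad11. It was -1.73 for Hadha, -1.54 for Hadhb, -1.75 for Decr1, -1.70 for Eci1, -1.0 for Etfdh and -0.66 for Acat1. Among genes of branched-chain breakdown it was -1.0 for Hsd17b10, -0.67 for Hibch and 1.35 for Acadsb, the only positive value of the 18.

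A probe set annotated to Gm44502, Cpt1b and Chkb together was left out by the rule on shared probe sets and carries signal outside the comparisons. It averaged 9.39 in wild-type livers on Wy14643. In knockout livers on Wy14643 it read 2.46, 2.15, 2.13 and 2.22, against 9.49, 9.39, 9.30 and 9.40 in wild-type livers on Wy14643. On control food it read 1.91, 1.82, 1.72 and 2.03 in knockout livers, against 2.13, 2.19, 2.09 and 2.05 in wild-type livers. Which of the 3 genes gives the signal was not tested.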

How the results depend on the processing

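Over all refits 0 of the called values changed sign. On Wy14643, the 22 genes lower in knockout than in wild-type livers and the 22 higher in wild type than on control food were all kept when 1 array was left out, with 23 to 24 calls for each of these comparisons and 18 to 19 for the interaction. On control food 8 to 9 genes were called between the genotypes when 1 array was left out, 14 at an adjusted p under 0.05 with no fold minimum, and 5 when limma's treat tested against a fold of 1.5. The knockout response had 1 call (Acadl), and 0 to 1 with 1 array left out. It had 2 calls at an adjusted p under 0.05 with no fold minimum and 0 with treat. With arrays centred on their median it had 0 (adjusted p of Acadl 0.018), and with only the arrays of its own groups 0 (0.076). Fewer arrays enter the last fit, and the cause of the other changes was not tested. With treat, calls fell to 19 between the genotypes on Wy14643, 17 in the wild-type response and 12 in the interaction. Averaging probe sets brought Acad10 on Wy14643 to -0.54, its interaction to -0.56 and Etfdh on control food to -0.55, all below the fold minimum. It also ended the knockout call of Acadl, which fell to 0.32 (adjusted p = 0.14) with a background-level probe set in the mean, and added calls for Slc25a20 in knockout (0.66) and Ivd between the genotypes on Wy14643 (0.60).

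With replicate number as a block the knockout response had 0 calls (Acadl 0.66, adjusted p = 0.011), and the counts of the other comparisons did not change. In the labels same-numbered mice share only a number, and correlations of their deviations were -0.12 to 0.19. Between the genotypes on the same food they were all positive, 0.07 to 0.17 on Wy14643 and 0.01 to 0.16 on control food. Mice of unlike number were not correlated for reference, so a shared deviation was not excluded.

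Of the 32 genes 31 had means above 6 in every group, far over the array medians. Second probe sets near or below those medians give background-level values.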
